A study of Mus musculus with 6 samples.

Results

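The genes described here are 10 adhesive and matricellular glycoprotein genes, Fn1, Fbln1, Fbln2, Fbln5, Tnc, Thbs1, Thbs2, Sparc, Postn and Spp1, out of 55291 gene symbols counted in sorted mouse mammary cells. They were selected by symbol for the kind of protein they encode, and that list was chosen from earlier results of these same libraries. The study itself had picked Fn1 and Fbln1 from its comparison of TEB-distal with nipple-proximal cells, so values and counts in that comparison are given here as a description that supports nothing by itself. The study also reported Fbln1 in the TEB-distal clusters of a published pubertal single-cell dataset, which was not used here. All 10 genes passed the filter on low counts, as did 17268 genes in all.

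RNA came from 6 libraries of cells with high surface CD49f (integrin α6, a basal marker), from which CD31-, CD45- and Ter119-positive cells had been removed. The cells were sorted by staining with FDG, a fluorogenic β-galactosidase substrate that reads lacZ placed in the Adgra3 gene, whose product is the adhesion receptor Gpr125. There were 2 libraries each of FDG-negative cells, here the libraries labelled Gpr125-negative, of Gpr125+ cells from the TEB-distal part of the gland, which holds the terminal end buds at the growing front of the ducts, and of Gpr125+ cells from the nipple-proximal part. All mice were Adgra3-lz/+ and 6 weeks old by the labels, so every library, the Gpr125-negative ones included, came from cells with 1 intact copy of Adgra3, and each sample pooled both abdominal glands of 5 mice. The part of the gland was set only by cutting at the lymph node, and no part was labelled for the Gpr125-negative libraries. The 2 libraries of a group are called its duplicates.

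Fibronectin, encoded by Fn1, is an adhesive glycoprotein that cells assemble into fibrils through integrins, and fibulins are secreted glycoproteins that link fibronectin, basement membrane and elastic fibres. Matricellular proteins, such as tenascin C, the thrombospondins, SPARC, periostin and osteopontin, are secreted into the matrix but mainly alter how cells adhere and signal rather than bear load. In the mammary gland, fibronectin and its integrin receptors are known from ductal branching and alveolar growth, and tenascin C from the stroma around growing end buds.

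Total counts ran from 20134890 to 37296640 per library, so that 3 counts corresponded to 0.0804 to 0.149 CPM (counts scaled to a common library total). Replicates correlated at r = 0.733 for the Gpr125-negative, 0.791 for the TEB-distal and 0.933 for the nipple-proximal pair across genes (log2 CPM), and the biological coefficient of variation was 0.967. Adgra3 itself stood at 35.7 and 18.6 CPM in the duplicates labelled Gpr125-negative, 15.0 and 4.83 CPM in TEB-distal and 19.2 and 12.3 CPM in the nipple-proximal duplicates, and so was not higher in the libraries labelled Gpr125+. The keratins Krt5 and Krt14 of basal cells were present in all 6 libraries, at 215 to 922 and 807 to 4697 CPM. In sorted populations such as these, a lower count can come from fewer cells of a type or from less RNA per cell, and the 2 cannot be told apart.

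The 10 genes together took up 0.439% and 0.404% of all counts in the TEB-distal duplicates, 0.219% and 0.222% in the nipple-proximal duplicates, and 0.197% and 0.159% in the duplicates labelled Gpr125-negative. Both TEB-distal libraries thus lay above the other 4, but the largest part came from a different gene in each. Spp1 made up 1720 of 4184 CPM in TEB-distal replicate 1 and stood at 50.8 CPM in replicate 2. Sparc made up 2793 of 4024 CPM in replicate 2 and stood at 998 CPM in replicate 1. Sparc, Postn and Spp1 supplied between 84.7% and 92.5% of the members' counts in every library.

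Per kilobase of exon, Sparc was the first or second of the 10 genes in every library, with group means of 148 ± 31.1 CPM per kb in the duplicates labelled Gpr125-negative, 500 ± 335 for TEB-distal and 350 ± 40.9 in the nipple-proximal duplicates (SD, n = 2 each). Spp1 was the highest in the TEB-distal group by its mean, at 537 ± 716 CPM per kb, but its 2 libraries spanned the level of Sparc, and the order of these 2 genes was not separated by the spread. Postn averaged 89.3 ± 34.3 CPM per kb and Thbs1 35.6 ± 1.65 CPM per kb in the TEB-distal group. Fn1, Fbln1 and Fbln2 followed at 14.6, 14.5 and 12.9 CPM per kb and did not differ from each other beyond their spread, whereas Thbs2, Fbln5 and Tnc each averaged under 1 CPM per kb. In the nipple-proximal group, Sparc, Postn and Thbs1 led again, and Fn1 was next to last, at 0.951 ± 0.735 CPM per kb.

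**Figure D1:**
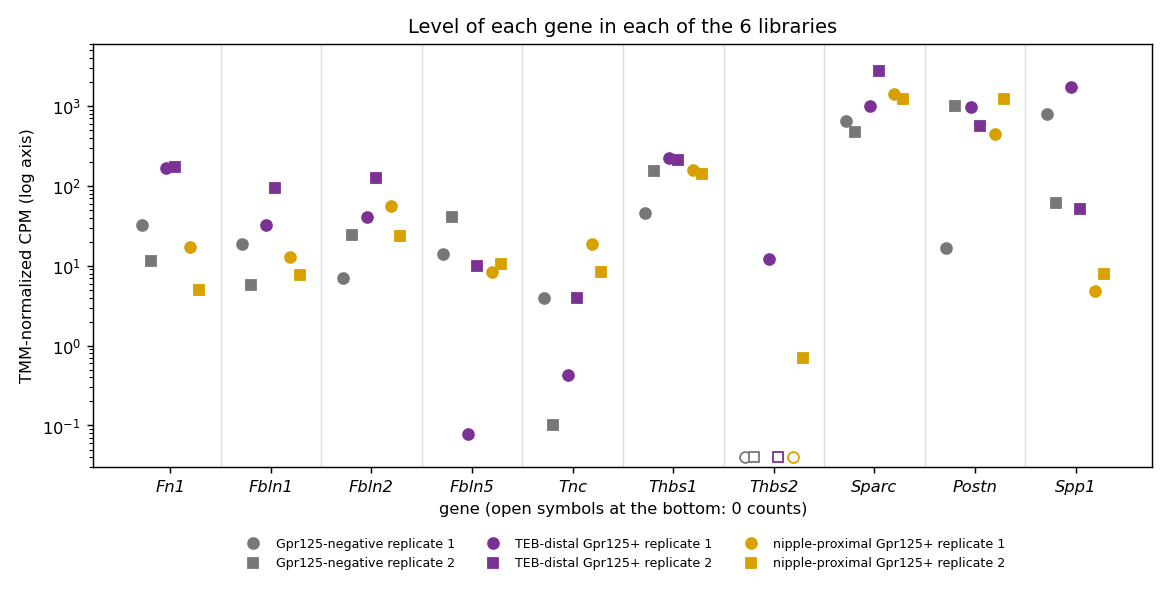
TMM-normalized CPM of each of the 10 genes (log axis) in the 2 libraries labelled Gpr125-negative (grey), the 2 TEB-distal Gpr125+ (purple) and the 2 nipple-proximal Gpr125+ (yellow) libraries, with circles for replicate 1, squares for replicate 2 and open symbols for 0 counts. The 2 TEB-distal points of Fn1 nearly coincide at 168 and 174 CPM above the other 4, whereas Spp1 differs 33.8-fold between the TEB-distal libraries and Postn 61.7-fold between the libraries labelled Gpr125-negative.

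Fn1 (chr1:71585520-71653200, minus strand, GRCm38) was high in both TEB-distal libraries. Its level was 168 and 174 CPM in the TEB-distal duplicates, 32.1 and 11.6 CPM in the duplicates labelled Gpr125-negative, and 17.2 and 5.04 CPM in the nipple-proximal duplicates. The TEB-distal pair was the tightest of any member, differing 1.03-fold, and lay above all other libraries, while the other groups overlapped. Against the libraries labelled Gpr125-negative, the TEB-distal mean was higher by 2.97 ± 0.88 (log2 fold change ± SE), which did not pass edgeR's quasi-likelihood test after Benjamini-Hochberg adjustment over all genes (adjusted p = 0.803). DESeq2 gave an adjusted p of 0.0601 on all 6 libraries but 0.178 on the 4 compared libraries, and edgeR without the filter on low counts gave 0.172. Leaving out any 1 library kept the difference between 2.41 and 3.75. The nipple-proximal libraries were lower than those labelled Gpr125-negative by a log2 fold change of -0.98 ± 0.82, a difference near its standard error, and -0.19 without Gpr125-negative replicate 1. Between the TEB-distal and nipple-proximal groups, the contrast the gene was chosen on, the means were 171 ± 3.92 and 11.1 ± 8.59 CPM (SD, n = 2), a log2 fold change of 3.94 ± 0.92. Fn1 shares 292 exon bases with Apol7d on the opposite strand, and since counting ignored strand, reads there could not be assigned, but Apol7d itself had at most 18 counts in a library against 5106 for Fn1 in the library where Apol7d was highest.

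The 3 fibulins did not share a pattern. Fbln1 and Fbln2 had their highest mean in the TEB-distal duplicates, and Fbln5 in the duplicates labelled Gpr125-negative. Fbln1 (chr15:85205949-85286535, plus strand), encoding fibulin-1, which binds fibronectin, stood at 32.8 and 93.5 CPM in the TEB-distal duplicates, 19.0 and 5.69 CPM in the duplicates labelled Gpr125-negative and 12.9 and 7.77 CPM in the nipple-proximal duplicates. Both TEB-distal values exceeded the other 4, although they differed 2.85-fold between themselves. The TEB-distal mean was higher than in the duplicates labelled Gpr125-negative by 2.35 ± 0.93 on the log2 scale (edgeR, adjusted p = 0.803, and 1.40 to 3.36 with 1 library left out), and the nipple-proximal mean differed from the latter by -0.26 ± 0.89. Between the TEB-distal and nipple-proximal groups, where Fbln1 had also been picked, the log2 fold change was 2.61 ± 0.94.

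Fbln2 (chr6:91212455-91272540, plus strand), whose product binds fibronectin and basement membrane proteins, had 40.4 and 124 CPM in TEB-distal, 6.97 and 24.0 CPM in the Gpr125-negative and 56.5 and 23.9 CPM in the nipple-proximal duplicates. The TEB-distal libraries were above both labelled Gpr125-negative, but 1 nipple-proximal library lay between the TEB-distal values. The difference from the libraries labelled Gpr125-negative was 2.41 ± 0.95 on the log2 scale for TEB-distal cells (edgeR, adjusted p = 0.803, and 1.38 to 3.55 with 1 library left out) and 1.38 ± 0.92 for nipple-proximal cells (adjusted p = 1.0). Fbln5 (chr12:101746565-101819055, minus strand), needed for elastic fibre assembly, went the other way in level, with 14.1 and 40.5 CPM in the duplicates labelled Gpr125-negative against 0.078 and 9.91 CPM in TEB-distal and 8.40 and 10.5 CPM in the nipple-proximal duplicates. TEB-distal replicate 1 held only 2 Fbln5 counts, under the limit that a count of 0 allows, while replicate 2 held 291. The log2 fold change of -2.45 ± 1.68 against the libraries labelled Gpr125-negative (adjusted p = 1.0) ran from -8.38, without TEB-distal replicate 2, to -1.49 with single libraries left out.

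Tnc (chr4:63959785-64047015, minus strand), which encodes the anti-adhesive glycoprotein tenascin C, was the member with higher levels in both nipple-proximal libraries than in any other. It had 19.0 and 8.47 CPM there, 4.0 and 0.102 CPM in the duplicates labelled Gpr125-negative and 0.429 and 3.98 CPM in the TEB-distal duplicates. The low values came from 3 counts in Gpr125-negative replicate 2 and 11 counts in TEB-distal replicate 1. Tnc shares 176 exon bases with 8030451A03Rik on the opposite strand. That gene had 12 counts in nipple-proximal replicate 2, against 180 for Tnc, and 0 in every other library. The nipple-proximal mean exceeded that of the libraries labelled Gpr125-negative by 2.74 ± 1.89 on the log2 scale (edgeR, adjusted p = 1.0), from 1.79 without Gpr125-negative replicate 2 to 6.89 without replicate 1, while the TEB-distal mean differed from the latter by 0.10 ± 1.78, with a sign that turned when single libraries were left out. The log2 fold change of TEB-distal over nipple-proximal cells was -2.64 ± 1.89.

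Thrombospondins are multimeric glycoproteins that bind CD36 and CD47 and restrain angiogenesis, and Thbs1 also activates latent TGF-β. Thbs1 (chr2:118111876-118127133, plus strand) was the steadiest member across the Gpr125+ libraries. Its level was 223 and 209 CPM in TEB-distal, 156 and 141 CPM in the nipple-proximal, and 46.0 and 155 CPM in the duplicates labelled Gpr125-negative. The TEB-distal pair lay above the nipple-proximal pair without overlap, with a log2 fold change of 0.54 ± 0.75, while 1 library labelled Gpr125-negative reached the nipple-proximal level. Against the libraries labelled Gpr125-negative, Thbs1 was higher by 1.10 ± 0.75 in TEB-distal cells on the log2 scale (adjusted p = 1.0), but by 0.35 without Gpr125-negative replicate 1 and by 2.23 without replicate 2. Thbs1 shares 208 exon bases with Gm29233 on the opposite strand, which had 0 counts in every library.

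Thbs2 (chr17:14665500-14694235, minus strand) was counted in 2 of the 6 libraries, with 311 counts in TEB-distal replicate 1 and 15 in nipple-proximal replicate 2, and 0 in the other 4. The mean of the TEB-distal group, 6.06 CPM, was at least 73.0-fold higher than the level that 3 counts over the libraries labelled Gpr125-negative would give, yet it rested on 1 library, since TEB-distal replicate 2 held 0 counts. DESeq2 nevertheless gave Thbs2 an adjusted p of 2.89e-12 in that comparison, against 0.821 by edgeR.

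Sparc (chr11:55394500-55423183, minus strand) encodes a collagen-binding, counter-adhesive glycoprotein, also called osteonectin. It had 645 and 479 CPM in the duplicates labelled Gpr125-negative, 998 and 2793 CPM in TEB-distal and 1436 and 1217 CPM in the nipple-proximal duplicates. All 4 Gpr125+ libraries were above both labelled Gpr125-negative, and the Gpr125+ groups overlapped. The log2 fold changes over the libraries labelled Gpr125-negative were 1.75 ± 0.82 for TEB-distal (edgeR, adjusted p = 0.845) and 1.24 ± 0.81 for nipple-proximal cells (adjusted p = 1.0), and they stayed above 0 with any library left out, from 0.82 to 2.31 and from 1.05 to 1.37. Of the members, Sparc and Tnc had both nipple-proximal libraries above both labelled Gpr125-negative.

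Postn (chr3:54361109-54391037, plus strand), encoding periostin, which binds integrins and supports collagen crosslinking, varied as much within groups as between them. It stood at 16.5 and 1017 CPM in the duplicates labelled Gpr125-negative, 989 and 566 CPM in TEB-distal and 451 and 1213 CPM in the nipple-proximal duplicates. A single low library, Gpr125-negative replicate 1, set the group means apart, and the groups overlapped in all 3 comparisons. Without it, the log2 fold change of TEB-distal over Gpr125-negative cells went from 0.59 ± 1.46 to below 0, at -0.53.

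Spp1 (chr5:104435118-104441050, plus strand), encoding the integrin- and CD44-binding phosphoprotein osteopontin, was low in both nipple-proximal libraries. Its level was 4.81 and 8.00 CPM there, 798 and 60.9 CPM in the duplicates labelled Gpr125-negative and 1720 and 50.8 CPM in the TEB-distal duplicates. Both replicate 1 libraries of the latter groups were far above their replicate 2, by 13.1-fold and 33.8-fold, but even the lower values were above the nipple-proximal ones. The nipple-proximal mean was below that of the libraries labelled Gpr125-negative by a log2 fold change of -6.07 ± 1.92 (edgeR, adjusted p = 1.0), ranging from -6.96 to -3.39 with 1 library left out. DESeq2 put the adjusted p of this difference at 7.07e-04 on the 4 compared libraries and 0.00897 on all 6, and edgeR without the filter on low counts at 9.68e-05. TEB-distal and Gpr125-negative libraries overlapped (1.04 ± 1.55 on the log2 scale), and the log2 fold change of TEB-distal over nipple-proximal cells was 7.11 ± 2.01, and 3.06 without TEB-distal replicate 1. Spp1 also shares 309 exon bases with Gm42793, which had at most 74 counts in a library, the same library in which Spp1 had 44112.

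**Figure D2:**
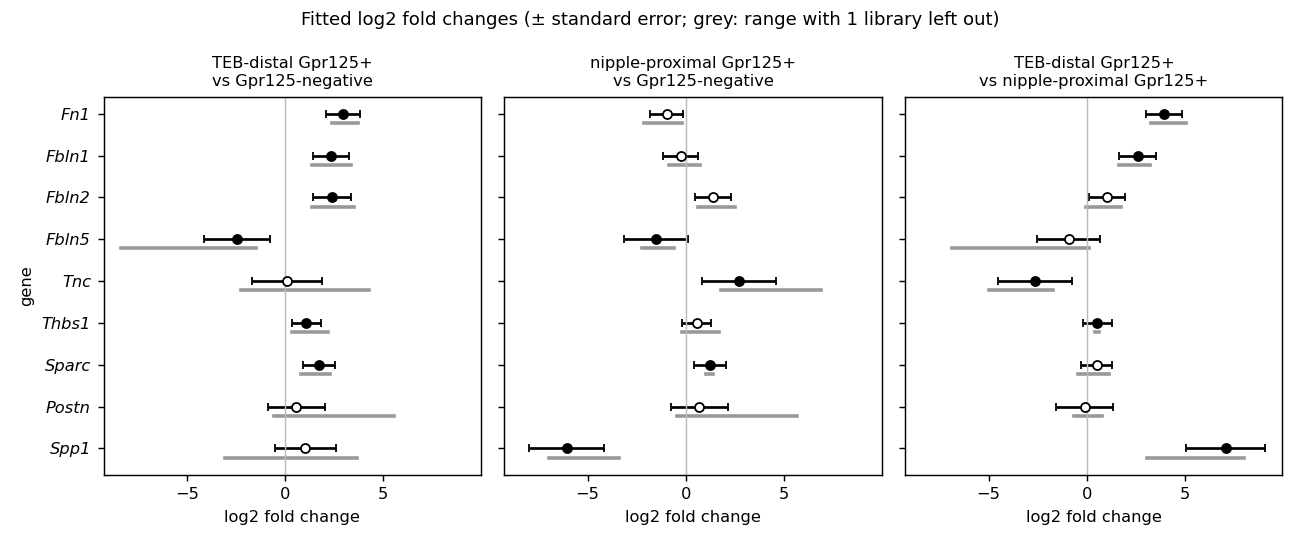
Fitted log2 fold changes (edgeR) of 9 genes in the 3 comparisons, with standard errors as black bars and the range over fits with 1 library left out in grey. Filled points mark genes whose 2 groups of libraries do not overlap and open points those that overlap, and Thbs2, with 0 counts in 4 libraries, is not drawn. In TEB-distal over Gpr125-negative cells, Fn1, Fbln1, Fbln2, Sparc and Thbs1 lie to the right of 0, at 2.97, 2.35, 2.41, 1.75 and 1.10. They stay there with any 1 library left out. Spp1 lies far to the left in nipple-proximal over Gpr125-negative cells, at -6.07.

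Start regions are shown of 3 members whose TEB-distal and nipple-proximal libraries did not overlap, Spp1 and Fbln1 (higher in both TEB-distal libraries) and Tnc (higher in both nipple-proximal libraries), to set the genes' proximal promoters beside their levels. The windows are RefSeq transcript starts on GRCm38.p6, from 250 bases before to 50 bases after the start, read 5′ to 3′ on the gene's strand. Capitals mark matches on either strand to TATAAA (the TATA box), to CCAAT (the CCAAT box), to GGGCGG (the GC box), to TGANTCA (the AP-1 site) or to TGTGGT (the Runx core). Each of these genes has 2 windows, and the one with motif matches is shown for Spp1 and Fbln1, whose other window held none. For Fbln1, that other window (chr15:85205699-85205998) overlaps the one shown and is the one at the gene's annotated start. For Tnc, whose windows also overlap, the one at the gene's annotated start is shown. Spp1 is at chr5:104434861-104435160 (plus), Fbln1 at chr15:85205758-85206057 (plus) and Tnc at chr4:64046966-64047265 (minus).
Spp1: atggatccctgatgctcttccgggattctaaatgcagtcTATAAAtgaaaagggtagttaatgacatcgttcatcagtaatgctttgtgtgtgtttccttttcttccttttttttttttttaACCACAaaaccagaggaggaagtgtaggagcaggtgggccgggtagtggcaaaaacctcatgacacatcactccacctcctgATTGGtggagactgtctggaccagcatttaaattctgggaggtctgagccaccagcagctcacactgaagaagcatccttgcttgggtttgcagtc
Fbln1: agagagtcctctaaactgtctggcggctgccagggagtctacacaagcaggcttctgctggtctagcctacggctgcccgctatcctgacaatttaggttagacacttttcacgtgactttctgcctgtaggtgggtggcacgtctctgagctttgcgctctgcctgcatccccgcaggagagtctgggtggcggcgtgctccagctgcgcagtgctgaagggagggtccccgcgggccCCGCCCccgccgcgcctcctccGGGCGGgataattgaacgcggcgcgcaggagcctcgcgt
Tnc: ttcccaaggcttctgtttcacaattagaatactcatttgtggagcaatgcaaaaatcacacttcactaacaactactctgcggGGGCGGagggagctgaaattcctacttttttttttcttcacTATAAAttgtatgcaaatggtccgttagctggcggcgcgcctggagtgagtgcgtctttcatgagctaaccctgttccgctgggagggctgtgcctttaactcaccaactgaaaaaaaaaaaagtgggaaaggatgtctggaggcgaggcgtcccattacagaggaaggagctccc
The Spp1 window held TATAAA at position -211 from the start, a reverse-strand Runx core at -128 and a reverse-strand CCAAT box at -46. The Fbln1 window shown had no TATAAA and 2 GC boxes, at -11 and 12 from its own start, and the Tnc window had a GC box at -167 and TATAAA at -126. Of 32851 such windows of all genes, 13.6% held TATAAA, 37.4% CCAAT, 35.7% GGGCGG, 7.81% TGANTCA and 16.8% TGTGGT. None of the 13 windows of 8 members, all but Fn1 and Thbs1, held TGANTCA. A match describes letters only.

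Counted over the members, 0 of 10 were called in TEB-distal against Gpr125-negative cells by edgeR (FDR under 0.1 and 2-fold), as were 0% of all genes. At an unadjusted p under 0.05, 4 of 10 members (Fn1, Fbln1, Fbln2 and Thbs2) passed, all higher in TEB-distal cells, Thbs2 through a single library. Of all genes, 6.05% passed in either direction, which is 1045 genes, of which 657 were higher. In 5 members, Fn1, Fbln1, Fbln2, Thbs1 and Sparc, both TEB-distal libraries lay above both labelled Gpr125-negative, against 14% of all genes, and Fbln5 alone lay below, against 10%. DESeq2 on the 4 compared libraries called 1 of 10, Thbs2, against 4% of the genes it tested, a call that rested on a single library. The median log2 fold change was 1.43 over the members and 0.03 over all genes tested. Since members were chosen with results of these TEB-distal libraries known, these counts, shares and medians are a description and nothing is read from them.

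In nipple-proximal against Gpr125-negative cells, edgeR again called 0 of 10 members and 0% of all genes. Spp1, which was lower, was the only member under an unadjusted p of 0.05, against 3.55% of all genes. Sparc and Tnc lay above both libraries labelled Gpr125-negative in both nipple-proximal libraries, 2 of 10 against 19.9% of all genes, so that the members' share was at the background. Fbln5 and Spp1 lay below, 2 of 10 against 10.8% of all genes, and DESeq2 called Spp1, 1 of the 9 members it gave an adjusted p, against 2.02% of genes. The median log2 fold change was 0.63 over the members and near 0 over all genes. Both comparisons used the same libraries labelled Gpr125-negative.

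Between TEB-distal and nipple-proximal cells, edgeR (FDR under 0.05 and 2-fold) called 0 of 10 members and 0% of all genes. As this contrast had served to choose members, the following counts and shares are a description and nothing is read from them. Fn1, Fbln1 and Spp1 were under an unadjusted p of 0.05 (2.21% of all genes) and were also the 3 called by DESeq2 on 4 libraries (1.57%). Fn1, Fbln1, Spp1 and Thbs1 were higher in both TEB-distal libraries, against 15.2% of all genes, and Tnc was lower in both, against 18.3%. The counts of members whose groups do not overlap were the same with DESeq2 size factors or library totals in place of TMM.

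Relatives of the 10 proteins and other adhesive or elastic matrix genes were described from a list of 47 genes, of which 39 were tested. TEB-distal libraries lay above both labelled Gpr125-negative for 6 and below for 2, nipple-proximal libraries above for 6 and below for 4, and TEB-distal above nipple-proximal libraries for 10 and below for 5. Over all genes tested, the shares above and below were 14% and 10%, 19.9% and 10.8%, and 15.2% and 18.3%, and the counts of the list against the libraries labelled Gpr125-negative lay near or below them. With edgeR, 0 of them were called, and 3, 4 and 1 were under an unadjusted p of 0.05. Their median log2 fold changes were 0.26, -0.02 and 0.30. None of the 4 relatives of osteopontin in the same gene cluster or family (Ibsp, Dmp1, Dspp and Mepe) had enough counts to be tested.

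Ccn3, a CCN family matricellular gene, stood out by its zeros. It had 288 and 87 counts in the duplicates labelled Gpr125-negative, 132 and 50 in the nipple-proximal duplicates and 0 in both TEB-distal libraries, without passing the edgeR test after adjustment (adjusted p = 0.803 and 1.0). DESeq2 on 4 and on 6 libraries gave Ccn3 adjusted p of 0.0027 and 1.40e-04 for TEB-distal against Gpr125-negative and 8.78e-04 and 7.59e-04 for TEB-distal against nipple-proximal cells. Fbn1, which encodes the microfibril protein fibrillin-1, had 0.689 and 0 CPM in the duplicates labelled Gpr125-negative, 3.78 and 19.1 CPM in TEB-distal and 15.1 and 6.07 CPM in the nipple-proximal duplicates, so that all 4 Gpr125+ libraries were higher (TEB-distal against Gpr125-negative, adjusted p = 0.815 by edgeR, and 0.129 and 0.0433 by DESeq2 on 4 and 6 libraries). Of the SPARC relatives, Fstl1 was lower in both nipple-proximal libraries, at 33.5 and 39.9 CPM, than in the duplicates labelled Gpr125-negative, at 144 and 87.2 CPM (log2 fold change -1.66 ± 0.64, adjusted p = 1.0), in contrast to Sparc itself. Spock3, another SPARC relative, had 8 and 28 counts in nipple-proximal libraries and 0 in both Gpr125-negative libraries.

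Of 16 receptors for these proteins (integrin subunits, CD44, CD36, CD47, syndecans and Lrp1), 15 were tested and 0 called by edgeR. TEB-distal libraries lay above both labelled Gpr125-negative for 2 and below for 1, nipple-proximal libraries for 4 and 1, and TEB-distal above nipple-proximal libraries for 0 and below for 3, to be read against the same shares of all genes. Itgb6, the β6 subunit of a fibronectin- and tenascin-binding integrin, had 0 counts in both libraries labelled Gpr125-negative, 90 and 15 for TEB-distal and 19 and 21 for nipple-proximal cells. Cd36, a thrombospondin receptor that endothelial cells and adipocytes also express, had 4.91 and 217 CPM in the duplicates labelled Gpr125-negative, 0.156 and 2.52 CPM in TEB-distal and 2.41 and 1.32 CPM in the nipple-proximal duplicates. With edgeR, neither passed after adjustment, with adjusted p = 0.803 in TEB-distal and 1.0 in nipple-proximal against Gpr125-negative cells. DESeq2 on 4 and on 6 libraries gave adjusted p of 0.0465 and 0.00764 for Itgb6 and 0.0129 and 0.00374 for Cd36 in TEB-distal cells, and 0.195 and 0.0714 for Itgb6 and 0.0101 and 0.0201 for Cd36 in nipple-proximal cells.

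Summed levels of cell type markers differed between the libraries, within groups as well as between them. The summed level of 12 endothelial markers was 1379 and 852 CPM in the duplicates labelled Gpr125-negative, 20.4 and 23.5 CPM in TEB-distal and 239 and 27.2 CPM in the nipple-proximal duplicates. Of the 12, 10 were lower in each TEB-distal library than in both labelled Gpr125-negative, against 10% of all genes. All 12 were counted in the duplicates labelled Gpr125-negative, whereas 1 and 2 of them were at 0 in the TEB-distal duplicates. The 12 basal markers summed to 3393 and 3554 CPM in the duplicates labelled Gpr125-negative, 4017 and 23031 CPM in TEB-distal and 9449 and 14952 CPM in the nipple-proximal duplicates. Taken singly against the libraries labelled Gpr125-negative, 7 were higher in TEB-distal libraries, 1 was lower and 4 overlapped. In nipple-proximal libraries, 10 were higher, 0 lower and 2 overlapped. The shares of all genes were 14% higher and 10% lower, and 19.9% and 10.8%. Fibroblasts are a known source of fibronectin, fibulins, periostin and SPARC, and the study's antibody list holds one to CD140a, the product of the fibroblast marker Pdgfra, which the labels do not give among the excluded markers. The 10 fibroblast markers summed to 28.6 and 145 CPM in the duplicates labelled Gpr125-negative, 93.3 and 175 CPM in TEB-distal and 70.3 and 52.9 CPM in the nipple-proximal duplicates. Of the 8 fibroblast markers tested, 5 were higher in each TEB-distal library than in both labelled Gpr125-negative, against 14% of all genes. Compared with both nipple-proximal libraries, 6 were higher, against 15.2% of all genes, and 0 were lower in either comparison. Dcn was the most abundant fibroblast marker in each library, at 17.3 to 122 CPM, and its groups overlapped. In TEB-distal, Gpr125-negative and nipple-proximal duplicates, Col1a1 stood at 4.37 and 6.33, 3.49 and 0, and 0.786 and 1.93 CPM. Pdgfra stood at 6.75 and 4.12, 2.65 and 0.034, and 0.049 and 0.80 CPM in the same order.

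The 12 leukocyte markers summed to 78.9 to 310 CPM, mostly Cd68 at 43.3 to 290 CPM, and the sum was highest in TEB-distal replicate 2. The 12 luminal markers summed to 1447 to 2930 CPM. Their sum in the TEB-distal duplicates, 2917 and 2730 CPM, exceeded that in the duplicates labelled Gpr125-negative, 2649 and 1447 CPM. Of the 12 taken singly in this comparison, 1 was higher in TEB-distal cells without overlap, 1 was lower and 10 overlapped. Over all genes, 14% were higher and 10% lower. The nipple-proximal sums, at 2930 and 2291 CPM, overlapped both groups. Pericyte markers summed to 1.67 to 27.9 CPM and adipocyte markers to at most 2.62 CPM. The part of these other cell types in the members' differences was not tested.

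**Figure D3:**
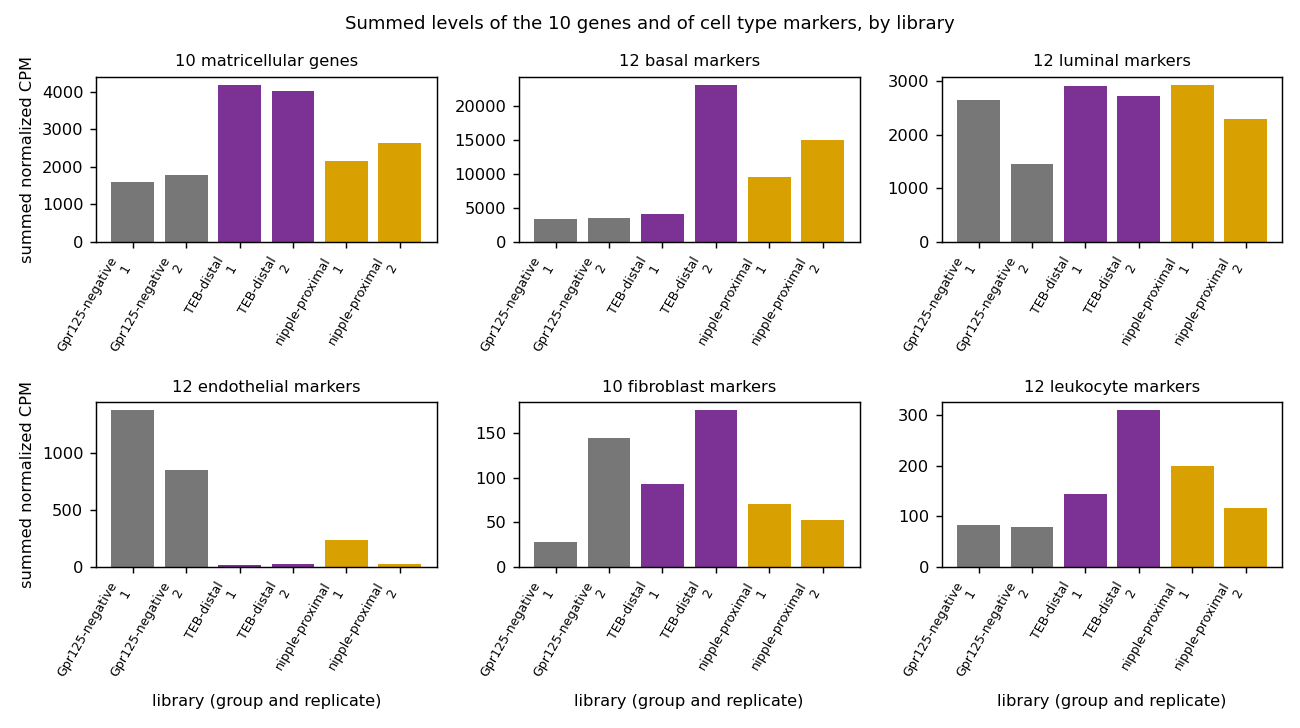
Summed TMM-normalized CPM in each library of the 10 genes and of 12 basal, 12 luminal, 12 endothelial, 10 fibroblast and 12 leukocyte markers, 1 bar per library, on axes that start at 0 and differ between panels. The 10 genes reach 4184 and 4024 CPM in the TEB-distal duplicates against 1582 to 2636 CPM elsewhere, the endothelial sum is highest in the duplicates labelled Gpr125-negative at 1379 and 852 CPM, and the basal sum differs between the TEB-distal libraries at 4017 and 23031 CPM.

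Across the 6 libraries, the tested genes whose log2 CPM ran most like that of Fn1 were Tbx6 (Pearson r = 0.988), Tmem131l (0.983), Stard4 (0.983), Ptk2b (0.979) and Gm20005 (0.975). Ptk2b, for example, which encodes a kinase of the focal adhesion kinase family, had 18.9 and 19.6 CPM in the TEB-distal duplicates and 5.27 to 8.39 CPM in the other 4. Among the members, Fbln1 was closest to Fn1 (r = 0.909, rank 88 of all genes), followed by Spp1 (0.618), while Fbln5 ran opposite (-0.605). With n = 6 libraries that fall into 3 sorted groups, these values describe the libraries and carry no test.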

How the data were processed

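RNA from 6 libraries (low-input SMART-Seq HT, no molecular identifiers) was counted by the authors. Per the labels, reads were aligned to mm10 with STAR 2.7.3 after base calling with CASAVA, and the study's methods name HTSeq for counting and an older STAR release. The annotation release was not given in the sources used here. The deposited values were raw read counts per gene symbol, unstranded and not normalized, with 20134890 to 37296640 counts per library. All else was computed here.

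The tests ran in edgeR 4.0.16 under R 4.3.3 (TMM, filterByExpr by group with a minimum count of 10, glmQLFit with robust estimation, glmQLFTest) in 1 model of 6 libraries and 17268 genes, with Benjamini-Hochberg adjustment over all of them. Calls needed a 2-fold change and an FDR under 0.1 against Gpr125-negative libraries, or under 0.05 between TEB-distal and nipple-proximal libraries, thresholds taken from the study's methods. DESeq2 1.42.0, the study's tool, was run as an alternative. Levels are TMM-normalized CPM, and per kb values used the union of exons in GENCODE M21 on GRCm38. A count of 0 was given a limit of 3 counts, which covers counting error only. Scripts were tested on simulated data. Libraries were taken as replicates because the labels list them as separate samples. Nothing says that they came from separate mice, so p-values measure the spread between these samples only.

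The members, gene lists and marker lists were chosen with earlier results of these data known. Named genes were all members, in each comparison up to 4 relatives or receptors with the smallest unadjusted p under 0.05 and no overlap between groups, the 5 genes most correlated with Fn1, Adgra3, and the most abundant or defining markers, of which Krt5, Krt14, Col1a1 and Pdgfra were named after their values were seen. The osteopontin relatives and the 3 genes whose promoters are shown were also named after being seen.

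Alternatives were DESeq2 on 6 or 4 libraries, edgeR on 4 libraries, DESeq2 size factors, 2 other filters, library totals, another FDR, a replicate block and leaving out each library.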

Additional observations from a re-analysis of the deposited data

How the results depend on the processing

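The 3 comparisons (TEB-distal against Gpr125-negative, nipple-proximal against Gpr125-negative, TEB-distal against nipple-proximal) called 0 genes each by edgeR, with 1045, 613 and 381 at an unadjusted p under 0.05. DESeq2 called 943, 321 and 96 genes on 6 libraries and 667, 317 and 247 on the 4 compared libraries, and edgeR without the filter on low counts (1 count or more) called 137, 58 and 31. Of the members, DESeq2 called 2, 2 and 2 on 6 libraries (Fn1 and Thbs2, then Spp1 and Thbs2, then Fn1 and Spp1) and 1, 1 and 3 on 4 libraries, and edgeR with that wider set of genes called 0, 1 and 2. The cause of these differences was not tested. Leaving out a library gave 0 to 747, 0 to 335 and 0 to 10 called genes, with 747 and 335 without Gpr125-negative replicate 1, 45 and 46 in the TEB-distal comparison without nipple-proximal replicates 1 and 2, 4 without Gpr125-negative replicate 2, 4 in the nipple-proximal comparison without either of its own libraries, and 10 without nipple-proximal replicate 2. A lone library was then assumed to vary like the other groups.

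Of 386 fold changes of members recomputed, 354 kept their direction and side of the threshold, 14 kept their direction and passed the threshold, and 18 reversed, 15 of them with a library left out. Postn in TEB-distal over nipple-proximal cells went from -0.10 to 0.048 (log2) with DESeq2 on 6 libraries and with its size factors in edgeR. With a library left out, log2 fold changes of TEB-distal over Gpr125-negative cells ran from -2.26 to 4.27 for Tnc, -0.53 to 5.55 for Postn and -3.05 to 3.70 for Spp1. Those of nipple-proximal over Gpr125-negative cells ran from -0.87 to 0.73 for Fbln1, -0.20 to 1.70 for Thbs1 and -0.43 to 5.66 for Postn. Those of TEB-distal over nipple-proximal cells ran from -0.011 to 1.77 for Fbln2, -6.86 to 0.14 for Fbln5, -6.33 to 10.52 for Thbs2, -0.43 to 1.14 for Sparc and -0.65 to 0.77 for Postn. Thbs2 had no value against Gpr125-negative cells without the 1 library of its group that held counts.

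Deviations of same-numbered libraries correlated at -0.035, 0.19 and -0.0049 in the 3 comparisons, so the replicate numbers were not taken to pair the libraries. With the replicate block, 0 genes were called in each comparison, and Postn in TEB-distal over nipple-proximal cells was at 0.55. The count of members whose groups do not overlap was recomputed with other scalings after seeing the data. The 2 libraries a group, with levels of Postn, Spp1 and Fbln5 that differed many-fold between replicates, limit what these tests can detect.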
